A study of Mus musculus with 7 samples.

Results

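Kit, Flt3 and Csf1r encode receptor tyrosine kinases of the class III family, and Kitl encodes the ligand of Kit. These 4 genes, of 21853 protein-coding genes in GENCODE M21, were chosen by name, and every open chromatin region (OCR) that overlapped the gene body plus 150 kb on either side for Kit, or plus 50 kb for Flt3, Csf1r and Kitl, was taken. Of 144931 OCRs obtained by merging the peaks of all libraries, 173 lay in these windows, 98 at Kit, 48 at Flt3, 26 at Csf1r and 1 at Kitl. The data were bulk ATAC-seq peak lists of 7 libraries (HPC7-1, HPC7-2 and HPC7-4 to HPC7-8) of HPC7, a mouse hematopoietic progenitor cell line, and by the methods of the study each library came from its own culture batch. The labels name no treatment and put all 7 libraries in 1 group, grown in medium with mouse stem cell factor, the protein product of Kitl. HPC7 is a single immortalized line, derived from mouse embryonic stem cells, so the values describe that line and not progenitors of an animal.

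In blood formation these receptors divide the work between lineages. Kit binds stem cell factor and is known for its role in hematopoietic stem cells, early progenitors and mast cells. Flt3 binds Flt3 ligand and marks multipotent and lymphoid-primed progenitors and dendritic cell precursors, whereas Csf1r binds the cytokines Csf1 and Il34 and is the receptor of monocytes and macrophages. Stem cell factor is made mainly by stromal and endothelial cells of the niche. In ATAC-seq the Tn5 transposase inserts adapters into accessible DNA, and promoters, enhancers and insulators appear as peaks.

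Intensity is given as the fold enrichment that the authors' peak caller assigned to the summit of a peak, a ratio to the background of the same library, and as a percentile among all peaks of that library. Promoter here means 1 kb on either side of any start of a protein-coding transcript. The lists held 84593 to 132852 peaks. Fold enrichments were whole multiples of 1 step in each library (within 0.02 of a whole number for 100% of the peaks), which gives the reads at each summit and a background of 4.44 to 7.45 reads in 6 libraries and 20.4 reads in HPC7-1. HPC7-1 also held 16873 merged OCRs found in no other library, against 283 to 4128 for each of the others. Names of the peaks begin with VD in 3 libraries and with EtOH in 4, which the labels do not mention, so they were not taken as conditions. They may mark a treatment and its vehicle, in which case the spread between libraries would include that difference.

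As a check of the label, all 8 hematopoietic progenitor markers (Ptprc, Cd34, Gata2, Tal1, Lmo2, Lyl1, Runx1 and Spi1) had a promoter OCR in all 7 libraries. Of 9 genes that mark other cells, Cd3e, Alb, Epcam, Cdh5, Mb, Ins2 and Krt5 had none in any library, while Col1a1 and Gfap had one in all 7, with a mean fold enrichment of 14.0 ± 2.52 and 17.3 ± 5.25 (SD, n = 7). Over all protein-coding genes, 54.5% had a promoter OCR in all 7 libraries and 40.0% in none.

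The sequences at the centre of the most intense OCRs outside promoters, and upstream of the starts, are shown first. The places described below can thus be read as sequence. Coordinates and sequences are of GRCm38.p6, the build of the lists (mm10). The windows below are 300 bases centred on the summit of the library in which the OCR had its highest percentile, on the plus strand, and capitals mark short words that were searched on both strands. The word for GATA factors was AGATAA, that for RUNX factors was TGTGGT, and that for ETS factors was AGGAAG. The E-box word was CAGNTG, the AP-1 word was TGANTCA, and the core consensus of CTCF was searched too. The first is the OCR at -114.2 kb from the start of Kit (chr5:75460533-75460832, intergenic), which holds 2 GATA words and 1 E-box word. The second, at +187.2 kb beyond the start of Kit (chr5:75761991-75762290, intergenic), is the most intense distal OCR of that window, with 1 GATA and 2 ETS words. The last is the OCR at +33.9 kb in intron 9 of Flt3 (chr5:147366416-147366715), with 3 E-box words, 1 RUNX word and 1 AP-1 word and no GATA word. No words overlapped one another in these windows.
Kit -114.2 kb: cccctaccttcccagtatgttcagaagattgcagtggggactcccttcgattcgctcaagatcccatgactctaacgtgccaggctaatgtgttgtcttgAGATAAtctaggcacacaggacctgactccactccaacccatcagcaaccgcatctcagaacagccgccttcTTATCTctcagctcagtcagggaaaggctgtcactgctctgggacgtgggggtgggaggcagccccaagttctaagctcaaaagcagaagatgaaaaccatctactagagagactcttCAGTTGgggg
Kit +187.2 kb: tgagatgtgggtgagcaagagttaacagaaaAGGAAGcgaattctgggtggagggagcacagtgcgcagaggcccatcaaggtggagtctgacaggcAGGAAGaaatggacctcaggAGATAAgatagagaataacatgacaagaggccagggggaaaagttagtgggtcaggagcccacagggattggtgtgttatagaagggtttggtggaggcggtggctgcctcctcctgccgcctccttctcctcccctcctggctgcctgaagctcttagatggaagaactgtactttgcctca
Flt3 +33.9 kb: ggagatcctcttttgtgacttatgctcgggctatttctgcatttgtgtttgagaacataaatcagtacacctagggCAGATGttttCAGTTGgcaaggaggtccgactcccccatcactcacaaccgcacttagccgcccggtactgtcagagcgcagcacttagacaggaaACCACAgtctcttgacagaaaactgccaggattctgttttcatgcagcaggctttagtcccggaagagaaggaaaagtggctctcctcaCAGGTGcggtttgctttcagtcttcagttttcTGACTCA

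The 250 bases before the first annotated start of a coding transcript are shown for a gene with an intense promoter OCR (Kit, chr5:75574666-75574915, plus strand), one with an OCR of intermediate intensity (Flt3, chr5:147400490-147400739, minus strand) and one with no promoter OCR (Kitl, chr10:100015380-100015629, plus strand), with the same words in capitals and each in the direction of its gene. Kit holds 1 E-box and 1 ETS word, Flt3 holds 1 E-box word and Kitl holds no word. Of 21848 such windows of protein-coding genes, an E-box word was found in 42.8%, an ETS word in 28.8%, a RUNX word in 12.8%, a GATA word in 9.03% an AP-1 word in 5.91% and the CTCF consensus in 0.526%. Flt3 and Kitl had the same base composition here, with 59.2% G and C, 13 CpG and an observed over expected CpG ratio of 0.597, and Kit was at 69.2%, 17 CpG and 0.598. Of 9253 protein-coding genes with a CpG ratio at least that of Kitl, 82.7% had a promoter OCR in all 7 libraries and 14.8% had none, and Kitl was among the latter.
Kit upstream: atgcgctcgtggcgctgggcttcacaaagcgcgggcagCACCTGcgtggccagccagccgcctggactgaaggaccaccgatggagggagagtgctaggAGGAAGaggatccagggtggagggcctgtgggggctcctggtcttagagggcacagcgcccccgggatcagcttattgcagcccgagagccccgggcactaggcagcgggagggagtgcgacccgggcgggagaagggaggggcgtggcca
Flt3 upstream: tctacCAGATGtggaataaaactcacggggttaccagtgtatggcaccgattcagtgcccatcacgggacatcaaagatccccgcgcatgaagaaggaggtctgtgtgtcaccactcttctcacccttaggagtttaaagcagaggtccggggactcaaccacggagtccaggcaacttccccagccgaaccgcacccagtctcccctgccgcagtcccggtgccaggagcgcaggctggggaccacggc
Kitl upstream: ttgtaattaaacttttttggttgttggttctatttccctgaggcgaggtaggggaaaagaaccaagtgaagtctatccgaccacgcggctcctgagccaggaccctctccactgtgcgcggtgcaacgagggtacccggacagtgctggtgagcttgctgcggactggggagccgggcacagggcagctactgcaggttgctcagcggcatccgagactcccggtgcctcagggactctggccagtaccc

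**Figure D1:**
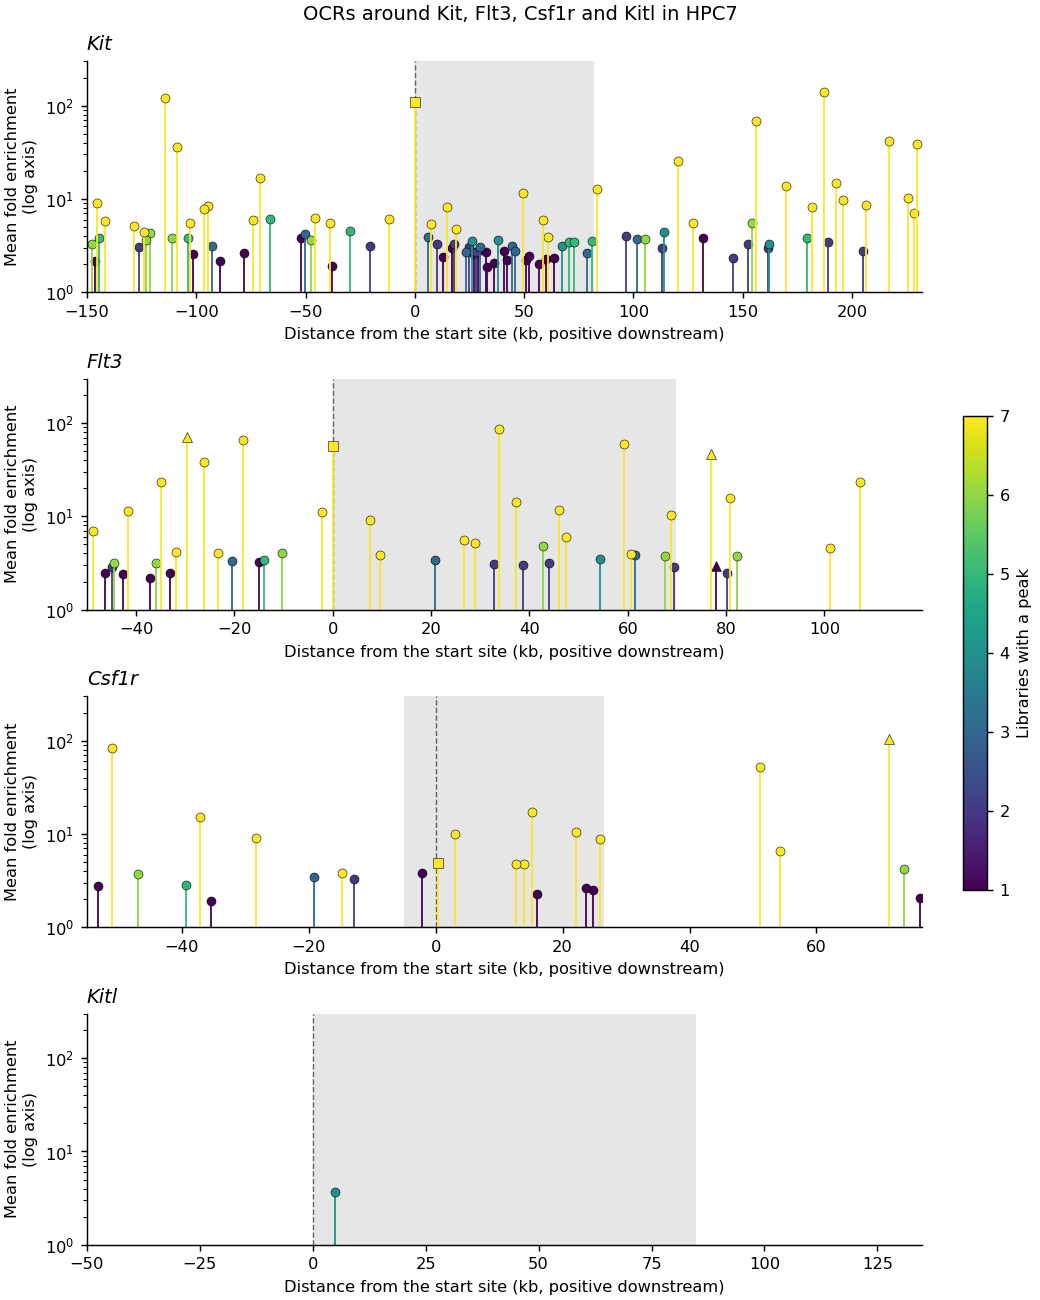
OCRs of the 4 windows by distance from the start site (x axis, kb) and mean fold enrichment over the libraries with a peak (y axis, log axis). Colour gives the number of libraries, squares are the gene's own promoter, triangles the promoter of another gene, and the grey band is the gene body. Kit has an intense promoter OCR and Flt3 one of intermediate intensity, both with more intense distal OCRs, Csf1r has a weak promoter OCR between intense OCRs of its neighbours, and Kitl has 1 OCR in 4 libraries.

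Kit (ENSMUSG00000005672, chr5:75574916-75656722, plus strand) had an intense promoter OCR in every library and 7 more OCRs that were in the top 25% of every library. The promoter OCR had fold enrichments of 67.6 at the lowest (HPC7-6), 106 at the median and 137 at the highest (HPC7-5), at percentiles from 94.0 to 97.5. Its summit lay between 74 and 132 bases after the first start, within exon 1, and rested on 431 to 2883 reads. Among 11916 protein-coding promoters with an OCR in all libraries it ranked 3921st by mean log2 fold enrichment, so the Kit promoter was in the upper part of the range but many promoters were more intense.

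The most intense distal OCR of the Kit window lay at +187.2 kb (chr5:75761429-75763054, intergenic), beyond the end of the gene, and it was first among distal OCRs in all 7 libraries. Its fold enrichments were 102 at the lowest, 149 at the median and 167 at the highest, with percentiles between 97.6 and 98.6. The OCR at -114.2 kb (chr5:75459937-75461674) was second among distal OCRs in all 7, with 89.6, 116 and 149. The summits of both were fixed to within 8 and 9 bases across the libraries, and 649 to 3293 and 572 to 2613 reads lay at them. Next in all 7 libraries came the OCR at +156 kb (chr5:75730132-75732246), in an intron of the lincRNA Gm43101, with 43.2, 66.3 and 82.3.

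The Kit promoter was less intense than the strongest distal OCR of its window in 7 of 7 libraries. The mean log2 ratio was -0.39 ± 0.18 (SD, n = 7), so that the distal OCR was 1.31-fold more intense. The distal OCR was chosen as the strongest of its window on these same values, here and at Flt3 and Csf1r, so the difference is a description with no test. Between the OCR at -114.2 kb and the promoter the order was not the same throughout: the distal OCR was higher in 6 libraries and lower in 1, with a mean log2 ratio of 0.18 ± 0.20, which did not exceed its spread.

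The other 4 OCRs of the Kit window in the top 25% of every library lay at +217 kb, +229.7 kb, -109 kb and +120.4 kb, all intergenic. Their fold enrichments ranged from 30.7 to 49.8, from 28.8 to 51.0, from 26.1 to 44.6 and from 17.7 to 32.8. The first 3 of these did not have a fixed order, since OCRs next to each other differed by a mean log2 ratio of 0.12 ± 0.12 and 0.11 ± 0.29. All 4 were below the OCR at +156 kb in the mean, and that at +217 kb was below it in 7 of 7 libraries by a mean log2 ratio of 0.68 ± 0.19.

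The first intron of Kit was open beyond the promoter. The merged promoter OCR spanned 6383 bp (chr5:75574151-75580533), and 0.136% of all merged OCRs were wider. In HPC7-1, HPC7-4 and HPC7-7 a single peak of 5844 to 6383 bp covered this stretch, with its summit at the start. In HPC7-2, HPC7-5, HPC7-6 and HPC7-8 the peak at the start was 2088 to 2359 bp wide and a separate peak followed in intron 1, with summits between 3295 and 3359 bases after the start and fold enrichments of 11.9, 19.1, 10.6 and 16.6. Each of these 4 libraries listed 1 more, weaker peak in the stretch, with its summit 2564 bases after the start in HPC7-5 and 4940 to 4993 bases after it in the others, at fold enrichments of 4.38 to 6.55. Whether a library listed 1 peak or several here did not follow the prefixes of the peak names, since each set held both forms.

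The Kit gene body held many weak OCRs. Including the promoter, 35 peaks in HPC7-1 and 11 to 23 in each other library had their summit in it. Of these, 1 or 2 per library were in the top 25%. The promoter OCR was the only one there in the top 25% of every library. Merged OCRs with a summit in the gene body numbered 37 with the promoter, and 7 of them were found in all 7 libraries, against 14 of 33 before the gene and 14 of 28 beyond it. Of the 21 OCRs of the Kit window that were found in a single library, 18 were in HPC7-1 (85.7%), beside 64.9% of the 25994 OCRs of the whole series found in a single library. In the whole Kit window 35 of 98 OCRs (35.7%) were found in all 7 libraries, beside 46.2% of all merged OCRs.

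Flt3 (ENSMUSG00000042817, chr5:147330741-147400489, minus strand) had a promoter OCR of intermediate intensity, surrounded by intense OCRs on both sides and within its introns. The promoter OCR (chr5:147399814-147401284) had fold enrichments of 39.1 at the lowest (HPC7-6), 55.5 at the median and 77.9 at the highest (HPC7-8), at percentiles from 87.9 to 93.5. Its summit lay in the untranslated part of exon 1, inside an intron of the antisense transcript Gm26597, and it moved by 13 bases at most between libraries. It ranked 8039th of 11916 protein-coding promoters with an OCR in all libraries.

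The most intense distal OCR of Flt3 was that at +33.9 kb (chr5:147365011-147367055) in intron 9, first among distal OCRs in all 7 libraries. Its fold enrichments were 67.0 at the lowest, 84.6 at the median and 106 at the highest, above the promoter in each library. The log2 ratio of promoter to strongest distal OCR was -0.62 ± 0.15 (SD, n = 7), or 1.54-fold in favour of the intronic OCR. A further intronic OCR at +59.3 kb, in intron 20, had 44.1, 57.8 and 74.3.

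Before the Flt3 start, OCRs lay at -18.2 kb (46.3, 68.0 and 83.5 at the lowest, median and highest) in the lincRNA D5Ertd605e, at -26.1 kb (24.7, 38.3 and 53.9, intergenic) and at -34.9 kb (16.4, 23.3 and 32.9) in an intron of the neighbouring gene Pan3. Beyond the gene, OCRs lay at +76.9 kb (32.1, 46.0 and 56.4), which overlapped the promoter of Urad, and at +107.2 kb (17.5, 22.4 and 34.1, intergenic). The OCR at -29.6 kb (51.3, 72.2 and 87.4) overlapped the promoter of Pan3 and was left out of the comparison with the Flt3 promoter. The OCR at +33.9 kb was above that at -29.6 kb in 7 of 7 libraries. The OCRs at -29.6, -18.2 and +59.3 kb and the promoter followed, and each of these was above the next in 5 of 7 libraries, by less than the SD of the log2 ratio. The promoter was above the OCR at +76.9 kb in 6 of 7 libraries (0.27 ± 0.24), that at +76.9 kb above that at -26.1 kb in 6 of 7 (0.29 ± 0.25), and that at -26.1 kb above that at -34.9 kb in 7 of 7 (0.70 ± 0.24). The OCRs at -34.9 and +107.2 kb had no fixed order (0.0054 ± 0.24).

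In the Flt3 window 25 of 48 OCRs (52.1%) were found in all 7 libraries, beside 46.2% of all merged OCRs, and 9 (18.8%) were in the top 25% of every library, beside 13.8%. At Kit the latter were 8 of 98 (8.16%) and at Csf1r 3 of 26 (11.5%), while at Kitl none of 1 was. Of the 25 OCRs shared at Flt3, 12 had their summit in the gene body.

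**Figure D2:**
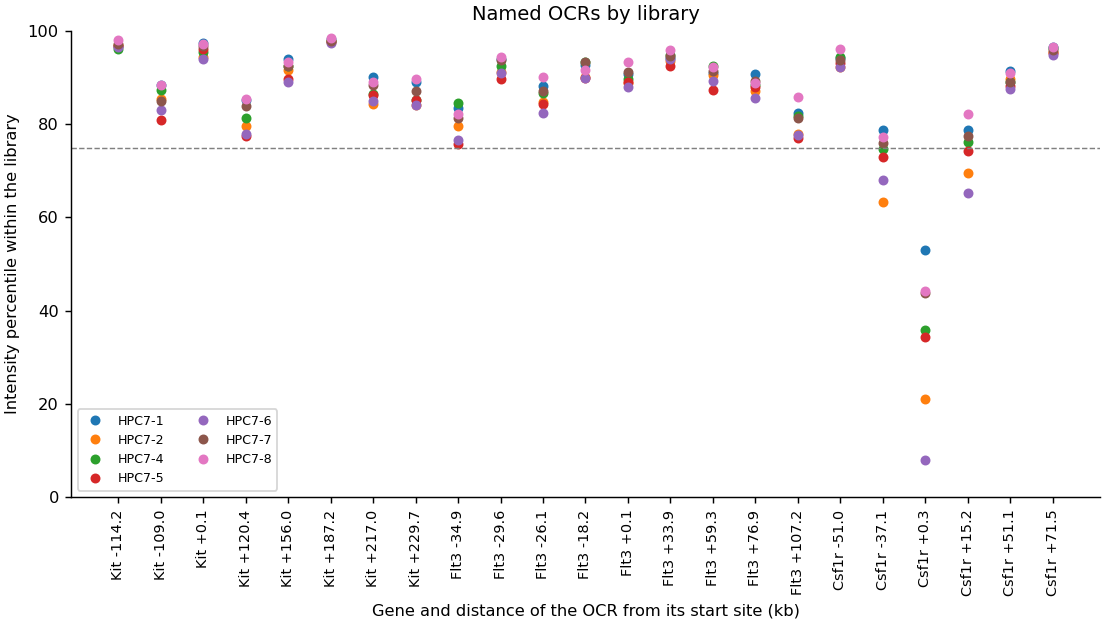
Intensity percentile (y axis) of the named OCRs of Kit, Flt3 and Csf1r in each library (colours), by gene and distance from the start site in kb (x axis). The dashed line is the 75th percentile. Apart from OCRs of Csf1r at -37.1, +0.3 and +15.2 kb, every point lies above it.

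Csf1r (ENSMUSG00000024621, chr18:61100598-61132149, plus strand) had a weak promoter OCR in all 7 libraries, and the intense OCRs of its window lay in or at other genes. The promoter OCR (chr18:61105444-61106168) had fold enrichments of 3.13 at the lowest (HPC7-6), 5.39 at the median and 5.83 at the highest (HPC7-8), and percentiles that spread from 7.89 to 53.1. It rested on 19 to 116 reads at the summit, which gives a counting error of 9.28% to 22.9%. Among the 11916 protein-coding promoters with an OCR in all libraries it ranked 11788th. The 250 bases before its first coding start held no CpG, and 9.91% of the 1644 genes with as low a CpG ratio had a promoter OCR in all 7 libraries.

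Within the Csf1r gene, OCRs with higher medians than the promoter lay further along. The OCR at +3.1 kb lay in intron 2, which is known to hold the Fms intronic regulatory element of macrophages. This OCR had fold enrichments of 7.04, 9.92 and 12.7 at the lowest, median and highest. Its summits differed by up to 800 bases between libraries, and whether it is that element was not tested. The OCR at +15.2 kb (chr18:61120421-61121176) in intron 11, which is an untranslated exon in another Csf1r transcript, had 9.70, 17.4 and 25.6. That at +22.1 kb in intron 15 reached 15.1, and that at +25.9 kb, where the last exons of Csf1r and Hmgxb3 overlap, reached 11.9. None of these was in the top 25% of every library. No OCR of the gene body reached the percentiles of the Kit or Flt3 promoters in any library.

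The 3 OCRs of the Csf1r window in the top 25% of every library lay at -51 kb (chr18:61052745-61057645), in an intron of Pdgfrb, at +51.1 kb in an intron of Hmgxb3, and at +71.5 kb at the start of Hmgxb3. Their fold enrichments were 57.9, 86.5 and 109 for the first, 37.9, 55.5 and 59.1 for the next and 73.7, 115 and 123 for the last. Without HPC7-1 the window had 5 OCRs in the top 25% of every other library, and with 150 kb on either side it had 9. The OCR at -37.1 kb, also in an intron of Pdgfrb, had 10.5, 16.0 and 18.5. That at -51 kb was the strongest OCR outside promoters in all 7 libraries, and the Csf1r promoter lay below it by a log2 ratio of -4.10 ± 0.19 (SD, n = 7), 17.2-fold, or -3.04 with a promoter of 3 kb on either side. Which gene any of these OCRs acts on was not tested.

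Kitl (ENSMUSG00000019966, chr10:100015630-100100416, plus strand) had no promoter OCR in any library, and its window of 184.8 kb held 1 OCR. That OCR (chr10:100020137-100020661), at +4.9 kb in intron 1, was found in HPC7-1, HPC7-2, HPC7-4 and HPC7-7 with fold enrichments of 2.29, 3.86, 5.21 and 3.20, on 20 to 48 reads at the summit. These were between the percentiles 6.88 and 40.7 of their libraries. The other 3 libraries listed no peak at all in the Kitl window, and depth limits what such a list can show, since a region below the threshold of the peak caller is not listed. The Kitl promoter has no listed value to set beside the OCR at +4.9 kb, and no test was made.

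**Figure D3:**
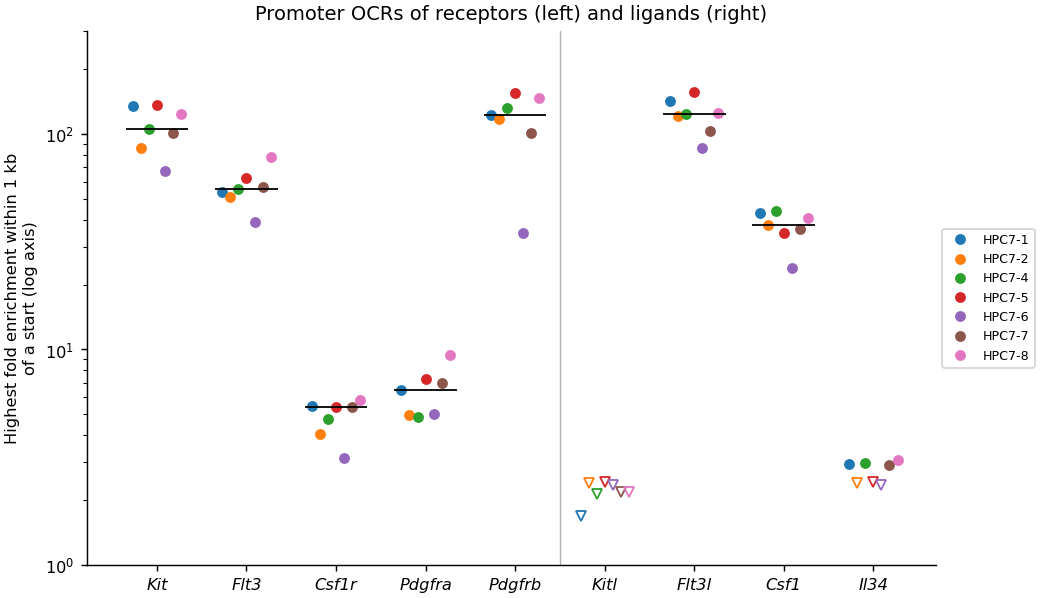
Highest fold enrichment of a peak within 1 kb of a start (y axis, log axis) for the 5 class III receptors (left) and the ligands of Kit, Flt3 and Csf1r (right), 1 point per library. Open triangles stand at the lowest fold enrichment listed in libraries with no peak there, and bars are medians. Kit lies above Flt3 and Flt3 above Csf1r in every library, and Kitl has no peak in any.

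The promoters of the 4 genes were compared within each library, which answers in which order the receptors and the ligand were open. Kit was above Flt3 in 7 of 7 libraries, with a mean log2 ratio of 0.92 ± 0.23 (1.89-fold), and Flt3 was above Csf1r in 7 of 7, with 3.54 ± 0.16 (11.7-fold). Kit was above Csf1r in 7 of 7, with 4.47 ± 0.14 (22.1-fold). Each of these 3 differences was larger than the spread between libraries (exact permutation of signs, two-sided, p = 0.0156, the smallest that 7 libraries can give, adjusted p = 0.0156 over 6 pairs). The other 3 pairs hold Kitl, which had no promoter peak in any library, so that their direction was set by the listing and they are not reported as tests. With promoters of 3 kb on either side the log2 ratio to Csf1r was 3.40 for Kit and 2.48 for Flt3. In percentiles Kit exceeded Flt3 by 5.81 ± 1.11 points and Flt3 exceeded Csf1r by 55.8 ± 14.0 points. Within both sets of libraries that the prefixes define, the 3 differences between receptors kept their sign. The mean log2 ratio of Kit to Flt3 was 1.01 in the 3 VD libraries and 0.86 in the 4 EtOH libraries.

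The protein-coding promoters most like each member over the 7 libraries were given by the root mean square difference in log2 fold enrichment, over 11916 promoters. For Kit these were Rab27b, Zfp930 and Cemip2 (0.053, 0.060 and 0.064), for Flt3 Usp16, Rasl11a and Tor3a (0.098, 0.099 and 0.103) and for Csf1r Cd24a, Spink4 and Tm6sf2 (0.126, 0.136 and 0.148). This is a likeness in level over libraries of the same cells and says nothing of shared function.

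**Figure D4:**
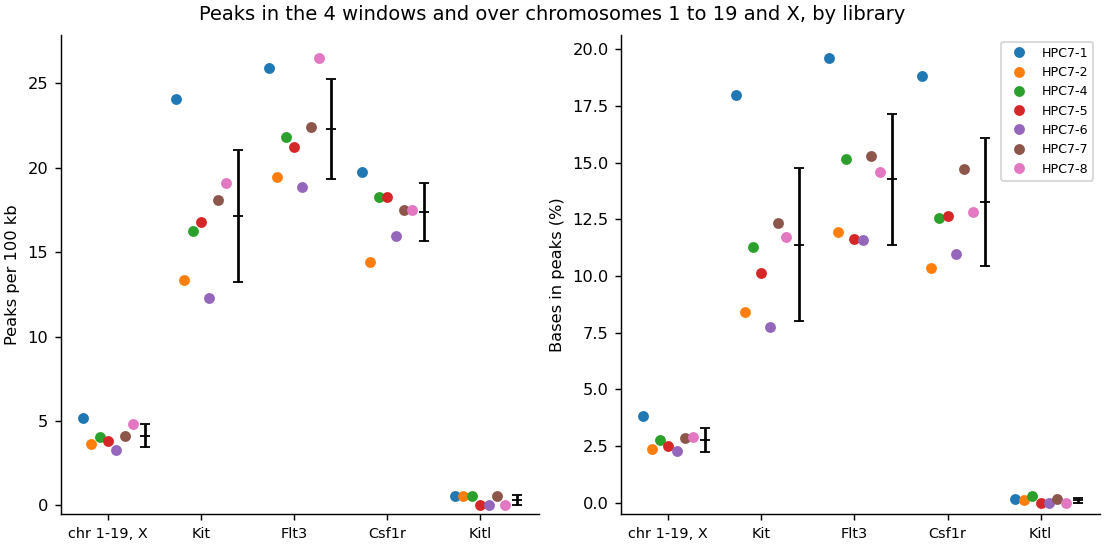
Peaks per 100 kb (left) and percentage of bases in peaks (right) over chromosomes 1 to 19 and X and in the 4 windows, 1 point per library, with the mean and SD in black. Kit, Flt3 and Csf1r lie above the genome in every library and Kitl lies below it.

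The density of peaks compared each window with the same library's chromosomes 1 to 19 and X. Libraries listed 47 to 92 peaks in the Kit window, 32 to 45 at Flt3, 19 to 26 at Csf1r and 0 or 1 at Kitl. Per 100 kb this was 17.1 ± 3.91 peaks at Kit, 22.3 ± 2.95 at Flt3, 17.4 ± 1.72 at Csf1r and 0.309 ± 0.289 at Kitl (SD, n = 7), beside 4.14 ± 0.665 over the chromosomes. The log2 ratio to the chromosomes, with 0.5 peak added to each window, was 2.05 ± 0.13 for Kit, 2.45 ± 0.06 for Flt3 and 2.11 ± 0.16 for Csf1r, which is 4.13-fold, 5.48-fold and 4.32-fold. With 150 kb on either side for every gene it was 1.86 for Flt3 and 1.68 for Csf1r, and Kit was then the highest of the 3. At Kitl the density was lower in 7 of 7 libraries, by a difference of -3.83 ± 0.67 peaks per 100 kb. Kit, Flt3 and Csf1r each kept their sign in 7 of 7 libraries (exact permutation of signs, two-sided, p = 0.0156, adjusted p = 0.0156 over 4 genes). The chromosomes include stretches far from genes, so this test does not set the windows apart from those of other genes. Windows of all protein-coding genes are set beside them below. With 0 or 1 peak at Kitl, its difference mainly repeats the density over the chromosomes. It is given as a description with no test. The Kitl OCR was in 3 of the 3 VD libraries and 1 of the 4 EtOH libraries, a difference that was not tested.

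Peaks covered 11.4% ± 3.37 of the bases of the Kit window, 14.3% ± 2.89 at Flt3, 13.3% ± 2.82 at Csf1r and 0.103% ± 0.108 at Kitl, beside 2.78% ± 0.526 over the chromosomes (SD, n = 7). The log2 ratios, with 100 bases added, were 2.01 ± 0.15 for Kit, 2.36 ± 0.07 for Flt3 and 2.26 ± 0.09 for Csf1r. For Kitl, where 3 libraries stood at 0 and a log2 ratio would rest on the bases added, the difference with nothing added was -2.68 ± 0.50 percentage points. Kit, Flt3 and Csf1r each held 1 sign in 7 of 7 libraries (exact permutation of signs, two-sided, p = 0.0156, adjusted p = 0.0156 over 4 genes). As with the density, the test is against whole chromosomes and not against the windows of other genes. The Kitl difference mainly repeats the share over the chromosomes and is given with no test. With 150 kb for every gene the covered share gave 1.62 for Flt3 and 2.00 for Csf1r, beside 2.01 for Kit. The windows were also set beside those of all 21670 protein-coding genes of these chromosomes. With the gene body plus 50 kb, 4.10% of genes had more merged OCRs per 100 kb than Kit, 5.29% more than Flt3, 19.7% more than Csf1r and 90.4% more than Kitl. Counting only OCRs found in all 7 libraries changed the place of Kit, which 35.6% of genes then exceeded, and less that of Flt3 (4.97%) and Csf1r (16.9%). For OCRs in the top 25% of every library, Kit had 1.10 per 100 kb, below the median gene at 1.58, and 55.8% of genes exceeded it, against 10.4% for Flt3 and 37.9% for Csf1r. With 150 kb on either side, the width chosen for Kit, its place was higher: 18.1% of genes exceeded it in OCRs found in all 7 libraries, and 36.2% in OCRs in the top 25%, where Kit had 2.10 per 100 kb and the median gene 1.45. In OCRs in the top 25%, Kit was thus below the median gene with the narrow window and above it with the wide one. In OCRs found in all 7 libraries, Kit was above the median gene with the narrow window too (7.15 against 5.02 per 100 kb). The Kitl window of 50 kb held no OCR found in all 7 libraries, as did those of 15.6% of genes.

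The other receptors of the class, Pdgfra and Pdgfrb, which bind platelet-derived growth factors, also had a promoter OCR in all 7 libraries, so that 5 of 5 class III receptors did, beside 54.5% of protein-coding genes. Pdgfrb, next to Csf1r, had the highest mean, 116 ± 39.8, with 34.9 in HPC7-6 and a median of 122, and Pdgfra had 6.44 ± 1.68 (SD, n = 7). Among 5 related receptors of endothelial cells, Tie1 (57.7 ± 15.2) and Flt4 (12.5 ± 2.82) had one in all 7, and Kdr, Flt1 and Tek had none in any library.

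The ligands of the 3 receptors differed among themselves. Flt3l, the ligand of Flt3, had a promoter OCR with fold enrichments of 86.2, 124 and 156 at the lowest, median and highest, and Csf1 had 23.9, 38.0 and 44.0. Il34, the other ligand of Csf1r, had one in 4 libraries, at 3.06 at most, and Kitl had none. Of 9 ligands listed, Flt3l, Csf1, Pdgfa, Pdgfb and Vegfa (88.3 ± 13.9) had a promoter OCR in all 7 libraries, Pdgfc in 6, Il34 in 4, Pdgfd in 2 and Kitl in 0. Of 24 genes that act downstream of these receptors, all 24 had one in all 7, beside 54.5% of protein-coding genes. The highest were the adaptor Shc1 (194 ± 41.9), the kinase subunit Pik3r1 (188 ± 37.0) and the phosphatase Dusp6 (183 ± 31.4), and the lowest was Src (15.7 ± 4.19).

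**Figure D5:**
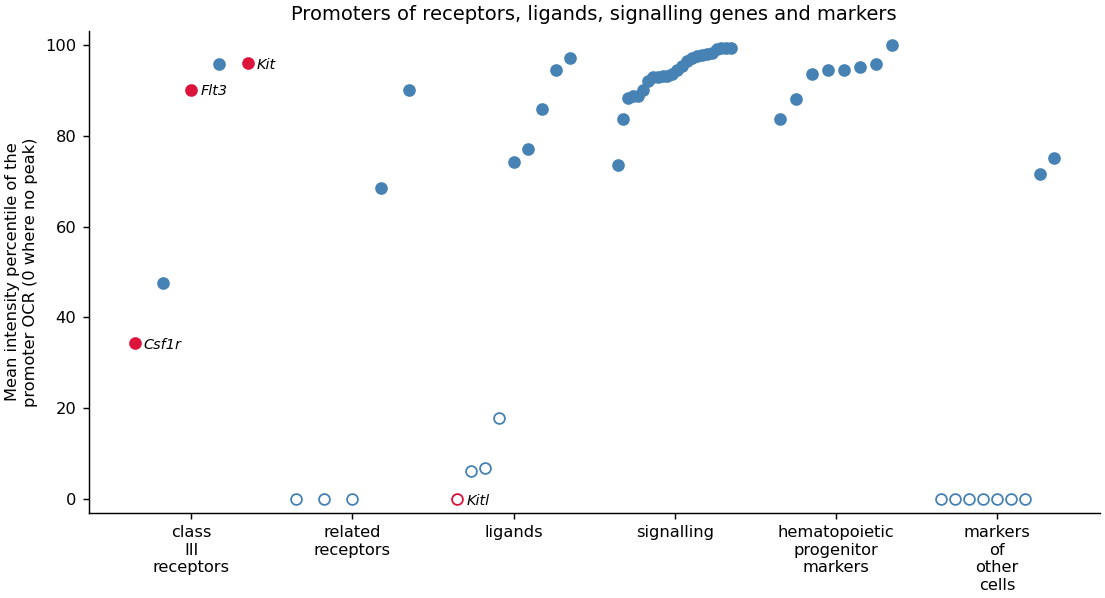
Mean intensity percentile over 7 libraries (y axis, 0 where a library lists no peak) of the promoters of each list (x axis), 1 point per gene. Filled points have a promoter OCR in all 7 libraries, and members are in red. All 24 signalling genes and all 8 progenitor markers are filled, and Kitl and 7 of the 9 markers of other cells stand at 0.

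Short words were counted in the 300 bases around the summit of the 74 member OCRs found in all 7 libraries, beside 66979 such OCRs in all. A GATA word was in 15 of 74 (20.3%, beside 19.2%), a RUNX word in 23 (31.1%, beside 33.1%), an ETS word in 48 (64.9%, beside 50.0%), an E-box word in 42 (56.8%, beside 58.0%), an AP-1 word in 13 (17.6%, beside 14.2%) and the CTCF core consensus in 4 (5.41%, beside 6.40%). By gene, a GATA word was in 11 of 35 OCRs at Kit, 3 of 25 at Flt3 and 1 of 14 at Csf1r. Among OCRs in the top 25% of every library it was in 4 of 8 at Kit, those at -114.2, +156, +187.2 and +229.7 kb, and in 0 of 9 at Flt3 and 0 of 3 at Csf1r, beside 16.2% of 19991 such OCRs. The 19991 include promoter OCRs, whereas those at Kit other than its own promoter OCR lay outside promoters. The sets are thus unlike, and a share over OCRs outside promoters was not computed. An ETS word was in 27 of 35 OCRs at Kit, 13 of 25 at Flt3 and 8 of 14 at Csf1r. Among OCRs in the top 25% of every library, a RUNX word was in 2 of 8 at Kit, 4 of 9 at Flt3 and 1 of 3 at Csf1r, beside 27.1%. The CTCF consensus was in 0 of 35 OCRs at Kit, 1 of 14 at Csf1r and 3 of 25 at Flt3, where it included those at +76.9 and +107.2 kb. These counts are descriptions without a test, and a word is not a bound site.

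The libraries differed in level over all OCRs. Of the 74 member OCRs found in all libraries, 60 (81.1%) had their lowest fold enrichment in HPC7-6, the library with the fewest peaks, beside 77.3% of all 66979 such OCRs. The highest was in HPC7-8 for 39 (52.7%), beside 42.1%. The median coefficient of variation over libraries was 20.6% at Kit, 19.9% at Flt3 and 21.7% at Csf1r. Summits of OCRs in the top 25% of every library differed between libraries by a median of 51 bases at Kit and 41 at Flt3, and those of the other shared OCRs by 80 and 95.5 bases. At Csf1r the 3 OCRs at +71.5, -51 and +51.1 kb differed by 0, 24 and 1473 bases. OCRs found in fewer than 7 libraries were weak, with mean fold enrichments of at most 6.07 at Kit, 4.85 at Flt3 and 4.18 at Csf1r.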

How the data were processed

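Bulk ATAC-seq libraries of HPC7 cells were analysed from the deposited peak lists, 7 libraries in 1 group, with replicate numbers from the labels. By the methods and the submitters' processing notes, the authors removed adapters with Cutadapt, used BWA-mem for alignment (mm10) and MACS2 for peaks, library by library; versions and options are not given in the sources used here. The deposited lists give a fold enrichment (a ratio), a -log10 p, a -log10 q and a score made from the -log10 q for each peak. Normalization between libraries by the authors is not given in the sources used here. The authors also used ChIP-R to find reproducible peaks, and a list of those was not used here. Reads at a summit were recovered here as fold enrichment divided by the step of that library, less 1, and their square root gives a counting error only.

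Chromosome names and ends of the lists fit GRCm38.p6, and starts came from GENCODE M21. Peaks overlapping by at least 1 bp were merged. Ratios within libraries were tested with an exact sign-flip permutation test (128 patterns, two-sided, Benjamini-Hochberg, threshold 0.05). The tests measure the spread between culture batches of 1 line. Merging, the test and read recovery were checked on simulated data, the first of them also with bedtools 2.31.1. Named OCRs were promoter OCRs and those in all 7 libraries and in the top 25% of each, or the 5 with the highest mean where fewer. OCRs at +3.1, +22.1 and +25.9 kb of Csf1r, the gene Src and the peaks in intron 1 of Kit were named after their values were seen. The result of 1 gene in the list of markers of other cells is not reported here, and that list was counted without it. From the lists of genes, those with no promoter OCR and the 3 highest were named. Alternatives were a minimum -log10 q of 5, equal numbers of peaks per library, -log10 p or percentiles as intensity, other windows and promoter widths, and each library left out. Differences in density and covered share with nothing added were chosen after seeing the data. Members, lists and tests were chosen with earlier results of these data known. Python 3.11.15, numpy 2.4.6, pandas 2.3.3, pysam 0.24.0, samtools 1.23.1 and matplotlib 3.10.9 were used.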

Additional observations from a re-analysis of the deposited data

Results flagged for a closer look

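In 35 groups of 7 libraries, of which chance flags about 1 in 20, 1 value stood apart. The Kit OCR at +156 kb had a log2 fold enrichment of 5.43 in HPC7-6, below the next library at 5.98 and the highest at 6.36, a gap of 0.593 of the whole range. HPC7-6 was also the lowest library at most of the other shared OCRs of these windows.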

How the results depend on the processing

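Of 332 values recomputed under alternatives, 317 kept their direction and their side of the threshold, or stayed within 1.5 times for counts, and 15 counts moved further. The 332 include comparisons reported here without a test, namely those of Kitl and of the strongest distal OCRs. They also include windows equal to the main setting, 150 kb for Kit and 50 kb for the other genes. The tally therefore overstates how far the results were put to a test. None of the comparisons reported with a test crossed the threshold or reversed under these alternatives. Shared OCRs fell to 22 at Kit and 16 at Flt3 where a library had to cover 50% of the merged OCR. With 50 kb on either side Kit had 13 shared OCRs and 2 in the top 25%. With 150 kb Csf1r had 28 and 9. In the top 10% there were 3 at Kit and 1 at Flt3. Without HPC7-1, the Csf1r window had 5 OCRs in the top 25% of the other libraries in place of 3, the range over libraries left out being 3 to 5. In 100 bases around the summit the GATA, RUNX, ETS, E-box, AP-1 and CTCF words were found in 8, 13, 26, 21, 5 and 1 of the 74 OCRs, in a window that holds fewer bases. With promoters of 3 kb either side of a start, Csf1r values moved by over 1.5 times, as given with the comparison of the receptors. The wider promoter takes in part of the OCR at +3.1 kb, which had higher fold enrichments than the Csf1r promoter OCR. Which peak set the wider value in each library was not tested. No paired analysis was possible because all 7 libraries belong to 1 group, so that no other group shares their replicate numbers; the tests compare values within each library. Differences in density with nothing added, chosen after seeing the data, kept the direction of all 4 genes. Lists of peaks without read counts between peaks limit what can be said of regions under the threshold, such as the Kitl promoter, and HPC7-1 listed fold enrichments down to 1.68, against 2.13 or more in the other libraries.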
